A study of Mus musculus with 2 samples.

Results

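Mpo, Elane, Prtn3, Ctsg, Prss57, Ctsc, Srgn and Ms4a3 are 8 genes linked to the primary granules that early neutrophil precursors make. They were followed in the total RNA of mouse cells labelled as erythroblasts, which still have a nucleus and later become red blood cells. The genes were chosen by name with their levels and the ratio between the libraries already known, and all 8 were found among the 43346 Ensembl genes (69691 features in all) of each gene table. The study had 1 group and 2 libraries, called replicates 1 and 2 below. The strain was C57BL/6J, the mice were male and 5 to 6 weeks old, and the cells were primary, with 100 ng of RNA depleted of ribosomal RNA per library. No genetic change or treatment was named. The isolation protocol named in the labels was one for erythroid cells and megakaryocytes of bone marrow. The replicates were separate biosamples with the same donor record, and nothing in the labels says that they came from different animals. What separates them can therefore be technical.

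Primary granules, also called azurophil granules, are formed at the promyelocyte stage of neutrophil development. They are loaded with myeloperoxidase and serine proteases, which neutrophils use against engulfed microbes. Secondary and tertiary granules form at later stages and hold other proteins, such as lactoferrin and gelatinase. Neutrophil precursors share the bone marrow with erythroblasts.

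Replicate 1 held 37312624 expected counts in Ensembl genes and replicate 2 held 22464724. Levels are given as coding-scaled TPM, in which the deposited TPM of 21461 nuclear protein-coding genes was brought to a sum of 1000000 per library. Those genes held only 11.3% of the TPM of Ensembl genes in replicate 1 and 6.89% in replicate 2. Coding-scaled levels are therefore well above deposited ones, and raised more in replicate 2. Mpo, for example, had 120.19 deposited TPM in replicate 1 and 44.14 in replicate 2. Ratios compare expected counts of replicate 1 over replicate 2 after TMM scaling, a method that assumes most genes not to differ and brings a trimmed mean of their ratios to a log2 value near 0. Intervals are exact 95% Clopper-Pearson intervals and cover counting error only. A ratio has 1 library on each side, so there is no test and no p-value. The labels' size range was 200 to 764 for replicate 1 and 138 to 1000 for replicate 2, without a unit, and its part in the ratios was not tested. Against the label of the cells, all 12 erythroid markers were detected (deposited TPM of 1 or more in each library), and their median levels were 3226 and 3805 coding-scaled TPM in replicates 1 and 2.

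The promoters of Mpo, Elane, Prtn3 and Ctsg are shown because PU.1, a transcription factor of myeloid cells, and MYB, one of immature blood cells, are known to act at such promoters. Sequences of 250 bases before the gene start came from RefSeq (GRCm38.p6), with 8 windows for 7 of the genes, 2 of them for Srgn. Prss57 had no window. Capitals mark matches to GAGGAAG, the letters searched for PU.1, or AACNG, those searched for MYB, on either strand.
Mpo (chr11:87793534-87793783, plus strand): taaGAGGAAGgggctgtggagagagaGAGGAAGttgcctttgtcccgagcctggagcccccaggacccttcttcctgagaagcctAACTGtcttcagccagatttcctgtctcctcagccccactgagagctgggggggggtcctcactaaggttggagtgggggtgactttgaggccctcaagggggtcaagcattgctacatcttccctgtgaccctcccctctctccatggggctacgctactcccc
Elane (chr10:79886062-79886311, plus strand): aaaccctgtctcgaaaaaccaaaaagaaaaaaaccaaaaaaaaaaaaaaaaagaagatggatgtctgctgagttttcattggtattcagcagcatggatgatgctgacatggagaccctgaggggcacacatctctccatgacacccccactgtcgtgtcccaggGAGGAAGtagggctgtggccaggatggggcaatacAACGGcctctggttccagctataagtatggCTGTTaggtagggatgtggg
Prtn3 (chr10:79879417-79879666, plus strand): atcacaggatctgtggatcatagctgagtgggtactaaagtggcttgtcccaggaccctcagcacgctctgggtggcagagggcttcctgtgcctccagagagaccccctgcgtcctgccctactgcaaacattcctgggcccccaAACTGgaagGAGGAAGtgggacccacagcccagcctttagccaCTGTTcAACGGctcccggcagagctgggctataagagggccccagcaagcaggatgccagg
Ctsg (chr14:56102575-56102824, minus strand): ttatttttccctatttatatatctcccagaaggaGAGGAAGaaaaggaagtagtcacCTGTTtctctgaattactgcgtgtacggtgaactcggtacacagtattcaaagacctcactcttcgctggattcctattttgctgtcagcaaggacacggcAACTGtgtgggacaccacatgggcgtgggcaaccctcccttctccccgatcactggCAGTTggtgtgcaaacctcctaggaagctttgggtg

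Both Elane and Prtn3 had a match to GAGGAAG followed by AACGG on the gene's strand. In Elane these began 85 and 50 bases before the start, and in Prtn3 95 and 55 bases before it. How many of all windows hold such a pair was not computed. The PU.1 letters were in 5 of the 8 windows, in Mpo, Elane, Prtn3, Ctsg and Ctsc, against 10.6% of all 32851 windows. The MYB letters were in 7 of 8 windows, against 74.2% of all. Letters searched for C/EBP factors (TTNCNNNAA) were in 3 windows, of Ctsc, Ms4a3 and Srgn, against 32.9% of all. Letters for RUNX factors (TGNGGT) were also in 3, against 40.1%. Letters for GATA factors (AGATAA) were in none, against 9.99% of all. A match of letters is a description and not a site. The GENCODE starts of Elane, Mpo and the transcript Prtn3-201 lie inside these RefSeq windows, and the leading Mpo transcript, Mpo-203, begins downstream of its window, so distances depend on the start used.

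Mpo encodes myeloperoxidase, the heme enzyme that makes hypochlorous acid from hydrogen peroxide and chloride. Mpo was the highest of the 8 genes, with 1068 coding-scaled TPM in replicate 1 and 640 in replicate 2 (854 ± 302, SD, n = 2). In bulk RNA, fewer cells of a type and less RNA per cell cannot be told apart. This placed Mpo at rank 129 among 12895 nuclear protein-coding genes with a TPM above 0 in either library. By itself it held 41.3% and 37.3% of the summed level of the 8 genes in replicates 1 and 2. Mpo (ENSMUSG00000009350) lies on chromosome 11, from 87793581 to 87804413 on GRCm38. The next gene along the chromosome, Lpo, encodes another peroxidase of the same family and had 0 counts in both libraries. Epx, the eosinophil peroxidase gene, had 56.2 coding-scaled TPM in replicate 1 and 32.6 in replicate 2.

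Elane, Prtn3, Ctsg and Prss57 encode serine proteases of the granule: neutrophil elastase, proteinase 3, cathepsin G and a neutrophil serine protease with a preference for arginine. Together they held 35.1% and 40.0% of the summed level in replicates 1 and 2. Elane had 465 coding-scaled TPM in replicate 1 and 288 in replicate 2. Ctsg had 306 in replicate 1 and 267 in replicate 2. Both lay above Prtn3 and Prss57 in each library.

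Prtn3 had 120.3 coding-scaled TPM in replicate 1 and 124 in replicate 2, the closest pair of values of the 8 genes. Prss57 was the lowest of the 8, with 15.1 coding-scaled TPM in replicate 1 and 7.25 in replicate 2. In deposited TPM, Prss57 had 1.70 and 0.50, so it alone missed the limit of 1 in replicate 2, while the other 7 passed it in both libraries.

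Prss57 (79781474 to 79790961), Prtn3 (79874476 to 79883174) and Elane (79886247 to 79888215) lie near each other on chromosome 10 (GRCm38). The nearest coding genes were lower than Elane and Prtn3. Cfd, the next protein-coding gene after Elane and the gene of the serine protease adipsin, had 0 counts in both libraries. Plppr3, before Prtn3 and partly overlapping it on the opposite strand, had 5.24 coding-scaled TPM in replicate 1 and 6.96 in replicate 2. Ptbp1, the gene before it, had 55.7 in replicate 1 and 40.0 in replicate 2. Fstl3 overlaps Prss57 on the opposite strand and had 0 counts in replicate 1 and 1 count in replicate 2.

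Ctsg lies on chromosome 14, from 56099881 to 56102574 on the minus strand, in the cluster of granzyme and mast cell protease genes. Of the other 14 listed genes of that cluster, 12 had 0 counts in both libraries, among them Gzmb, Gzmc, Gzmd, Gzme, Mcpt4 and Cma1. A count of 0 allows up to 0.0804 CPM in replicate 1 and 0.134 CPM in replicate 2. Mcpt8, a basophil protease gene beside Ctsg, was the exception, with 108 coding-scaled TPM in replicate 1 and 121 in replicate 2. The remaining gene, Mcpt2, had 0 and 6 counts.

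Ctsc encodes dipeptidyl peptidase I, which activates the granule serine proteases by removing a short peptide from their ends. It had 68.2 coding-scaled TPM in replicate 1 and 46.3 in replicate 2. Srgn encodes serglycin, the core protein of a proteoglycan that holds proteins inside granules. Srgn had 440 coding-scaled TPM in replicate 1 and 247 in replicate 2, close to Elane in both libraries. Srgn and Ctsc are also expressed by many other blood cells, so they are less specific to neutrophil precursors than Mpo or Elane. Ctsc lies on chromosome 7 (88278085 to 88310888, plus strand) and Srgn on chromosome 10 (62493833 to 62527451, minus strand). Of 12 other cathepsin genes 8 were detected, with Ctse highest at 1554 coding-scaled TPM in replicate 1 and 1337 in replicate 2, and Ctsw had 0 counts in both.

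Ms4a3 encodes a membrane protein known as a marker of granulocyte and monocyte progenitors. It lies on chromosome 19 (11629496 to 11640851, minus strand) and had 102 coding-scaled TPM in replicate 1 and 95.7 in replicate 2. Of the other 15 listed Ms4a genes, 4 had 0 counts in both libraries and 6 reached 1 coding-scaled TPM in both. By deposited TPM of 1 or more in each library, 4 were detected. Ms4a2, the adjacent gene, encodes a chain of the IgE receptor of mast cells and basophils, and had 31.4 coding-scaled TPM in replicate 1 and 18.1 in replicate 2. By mean level the order of the members was Mpo, Elane, Srgn, Ctsg, Prtn3, Ms4a3, Ctsc and Prss57. The values of Elane, Srgn and Ctsg overlap between the libraries, so their order among themselves is not set. The values of all other neighbours in this order do not overlap, with Prtn3 at 122 ± 2.51 and Ms4a3 at 99.0 ± 4.63 (SD, n = 2 each) the closest pair.

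**Figure D1:**
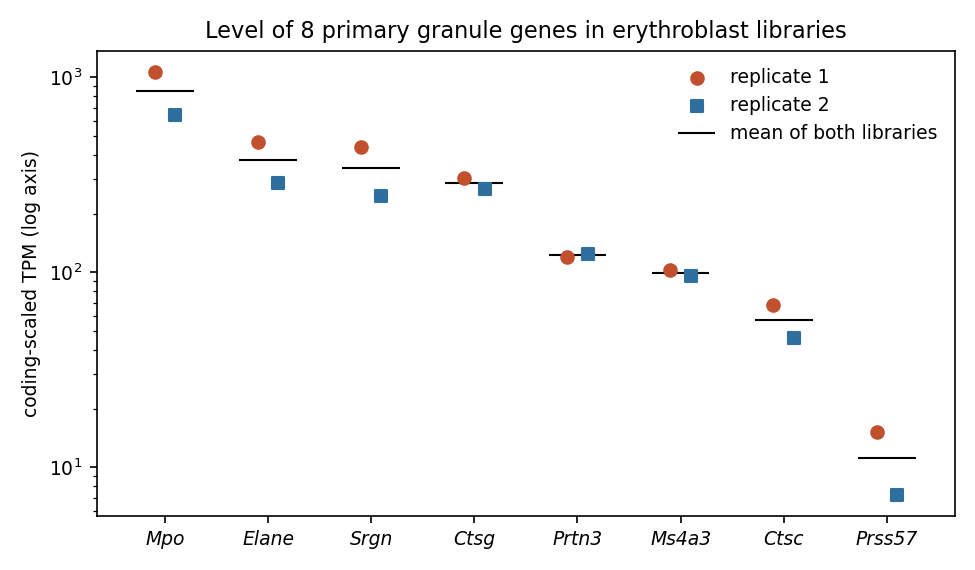
Level of each gene in coding-scaled TPM on a log axis, with 1 point per library and a line at the mean of both. Mpo is highest at 1068 and 640 in replicates 1 and 2, Prss57 is lowest at 15.1 and 7.25, and Prtn3 is the only gene with the higher point in replicate 2.

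Summed over the 8 genes, the level was 2585 coding-scaled TPM in replicate 1 and 1715 in replicate 2, which is 0.259% and 0.171% of nuclear protein-coding TPM (0.215% ± 0.0615, SD, n = 2). Of nuclear protein-coding counts they held 0.228% and 0.138%. All 8 genes had a posterior standard deviation of the gene count of 0 in both libraries, so the authors' estimate held no uncertainty from reads shared with other genes.

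The members did not share 1 ratio between the libraries. Mpo, Elane, Srgn and Prss57 were 1.64-fold to 2.20-fold higher in replicate 1. Prtn3, Ctsg and Ms4a3 were 1.10-fold to 1.17-fold higher there, and Ctsc stood at 0.945-fold. The ratios are a description, since they were among the values known when the genes were chosen.

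Mpo had 30414 expected counts in replicate 1 and 8984 in replicate 2, a log2 ratio of 0.88 (0.85 to 0.92). Srgn had 5055 counts in replicate 1 and 1469 in replicate 2, a log2 ratio of 0.90 (0.82 to 0.99). Elane had 5158 and 1714 counts in replicates 1 and 2, a log2 ratio of 0.71 (0.63 to 0.79). The intervals of Mpo and Srgn overlap, and that of Elane lies below both.

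Prss57 had 575 counts in replicate 1 and 142 in replicate 2, a log2 ratio of 1.14 (0.87 to 1.41). Ctsg had 3784 and 1758 counts in replicates 1 and 2, a log2 ratio of 0.23 (0.15 to 0.31). The interval of Ctsg lies below those of the other serine proteases Elane and Prss57. Ms4a3 had 1264 and 608 counts in replicates 1 and 2, a log2 ratio of 0.18 (0.04 to 0.32).

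Prtn3 had 1430 and 706 counts in replicates 1 and 2, a log2 ratio of 0.14 (0.0089 to 0.27). Its direction flips to -0.042 by the ratio of coding-scaled TPM. Ctsc had 1529 and 880 counts in replicates 1 and 2, a log2 ratio of -0.08 (-0.20 to 0.04), and is the member whose interval holds 0. Its sign also depends on the scaling: the log2 ratio of Ctsc was 0.07 by library size alone and 0.56 by coding-scaled TPM, which also follows the transcripts' lengths. Its estimated length was 1665 bases in replicate 1 and 2605 in replicate 2.

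At least 1.5-fold higher in replicate 1 were 4 of the 8 genes, where 14.8% of 8203 genes averaging 100 counts or more were. Prss57 alone was at least 2-fold higher, as were 5.8% of all genes. None of the 8 was 1.5-fold higher in replicate 2, where 11.2% of genes were. The ratio was above 0 for 7 of 8 members and for 52.9% of all genes, and the whole interval lay above 0 for the same 7 members and for 37.3% of all genes. The median log2 ratio was 0.47 for the members and 0.03 for all genes. Because the ratio entered the choice of the genes, nothing is read from these counts or from the shares that follow. Among nuclear protein-coding genes within 0.5 log2 units of the mean count, 1.01% of 99 genes had a higher ratio than Mpo, 0.392% of 510 a higher one than Srgn and 0.839% of 477 a higher one than Elane. For Prss57 it was 2.96% of 1790 genes, and for Ctsg 19.6% of 588. The other members lay nearer the middle, with 34.3% of 1258 genes above Ms4a3, 38.1% of 1145 above Prtn3 and 62.0% of 1059 above Ctsc. The GC content of the members ranged from 42.9% for Srgn to 59.9% for Prtn3. Nuclear protein-coding genes within 2 points of each member's GC content had median log2 ratios of 0.01 to 0.10.

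**Figure D2:**
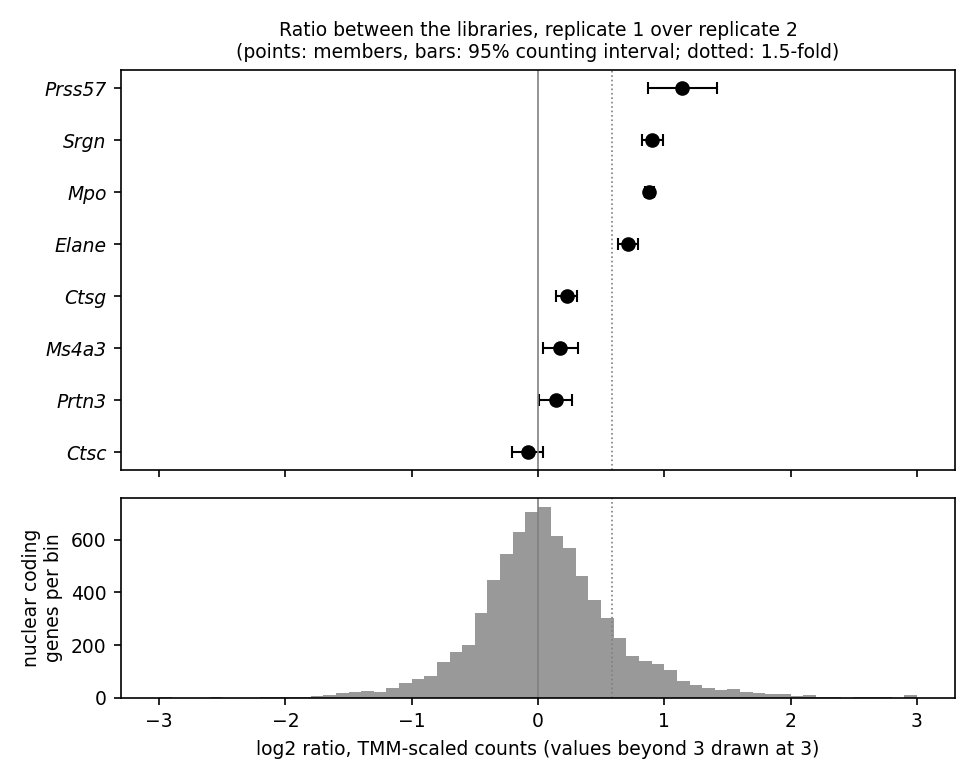
Upper panel: log2 ratio of each gene, replicate 1 over replicate 2, with 95% counting intervals; lower panel: histogram of the same ratio over 7658 nuclear protein-coding genes in bins. Prss57, Srgn, Mpo and Elane lie right of the dotted 1.5-fold line, while Ctsg, Ms4a3, Prtn3 and Ctsc lie between -0.08 and 0.23.

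Genes with the ratio most like that of Mpo were sought among 2153 other nuclear protein-coding genes averaging 1000 counts or more. Nearest were B2m, the light chain of class I histocompatibility molecules (0.88), Klf6 (0.89), Ugcg (0.87), Srgn (0.90) and Foxn2 (0.91). In all, 23 genes lay within 0.1 of the log2 ratio of Mpo, and 21 (0.975%) had a higher one. Likeness here is over 2 libraries only, and nothing is read from these counts, since the ratio of Mpo was known when it was chosen.

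The transcript tables split 32 annotated transcripts among the 8 genes, of which 17 held on average at least 1% of their gene's TPM. Elane and Ctsg each have 1 transcript. In Prss57, Prss57-201 took 100% in both libraries, with posterior standard deviations of the count of 16.2 and 5.90. Those of Prss57-203, which was given 0 counts, were 16.1 and 5.88. Srgn-201 led Srgn with 97.6% in replicate 1 and 95.8% in replicate 2. Ms4a3-202 led Ms4a3 with 93.1% in replicate 1 and 98.1% in replicate 2.

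By share of TPM, Prtn3 was the member whose leading transcript differed between the libraries. Prtn3-201, the full coding transcript of 5 exons, held 78.4% of Prtn3 TPM in replicate 1 and 42.5% in replicate 2. Prtn3-204, annotated as a retained intron, held 21.1% in replicate 1 and 57.5% in replicate 2. Prtn3-204 shares 730 of its 786 bases with Prtn3-201 and has 56 bases of its own. The first 295 bases of Prtn3-201 lie before the first base of Prtn3-204.

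By counts Prtn3-201 led in both libraries, with 83.8% of the gene in replicate 1 and 50.4% in replicate 2, where Prtn3-204 had 49.6%. Prtn3-201 had 1198 counts in replicate 1 and 356 in replicate 2, with posterior standard deviations of 17.0 and 18.7. Its log2 ratio of 0.87 (0.70 to 1.05) lies apart from that of the whole Prtn3 gene, 0.14. The interval does not cover error in how reads were split between the transcripts. Prtn3-204 had 230 counts in replicate 1 and 350 in replicate 2, a log2 ratio of -1.48 (-1.73 to -1.24). The ratios of single transcripts were computed after the shares had been seen.

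Ctsc also differed in its transcripts. Ctsc-201, the full coding transcript, held 43.3% of Ctsc TPM in replicate 1 and 81.6% in replicate 2. The shorter transcripts Ctsc-202, all 831 bases of which are in Ctsc-201, and Ctsc-204, a retained intron with 251 bases of its own, held 25.6% and 24.3% in replicate 1, against 0% and 0.79% in replicate 2. Ctsc-203, with 2833 bases outside Ctsc-201, held 6.82% in replicate 1 and 17.6% in replicate 2. By counts Ctsc-201 held 67.6% and 77.9% of the gene in replicates 1 and 2.

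Mpo kept its leading transcript. Mpo-203 held 75.2% of Mpo TPM in replicate 1 and 66.7% in replicate 2, and 89.1% and 83.1% of its counts. Mpo-205, a short transcript near the 3′ end with 216 bases outside Mpo-203, held 18.5% in replicate 1 and 26.2% in replicate 2. Mpo-203 had a log2 ratio of 0.98 (0.94 to 1.02) and Mpo-205 one of 0.22 (0.08 to 0.36). Mpo-201, another coding transcript, had one of 0.20 (0.08 to 0.31). As for Prtn3, these intervals do not cover error in how reads were split between the transcripts. The posterior standard deviations of the Mpo-205 count were 47.8 in replicate 1 and 28.7 in replicate 2.

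A leading share at least 20 percentage points apart was seen in Prtn3 and Ctsc, 2 of the 6 members with several transcripts, where 41.4% of 5782 nuclear protein-coding genes with several transcripts had one. Over the 2791 such genes averaging 500 counts or more it was 29.7%. Transcripts annotated as retained introns held 21.6% of Prtn3 in replicate 1 and 57.5% in replicate 2. The other members with such transcripts went the other way, with 24.3% and 0.79% of Ctsc, 6.89% and 0.97% of Ms4a3, and 1.24% and 0% of Mpo in replicates 1 and 2. The median over 1717 nuclear protein-coding genes with such a transcript and that count minimum was 16.6% in replicate 1 and 18.8% in replicate 2. A share of at least 50% was found in 12.9% of those genes in replicate 1 and in 14.3% in replicate 2.

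**Figure D3:**
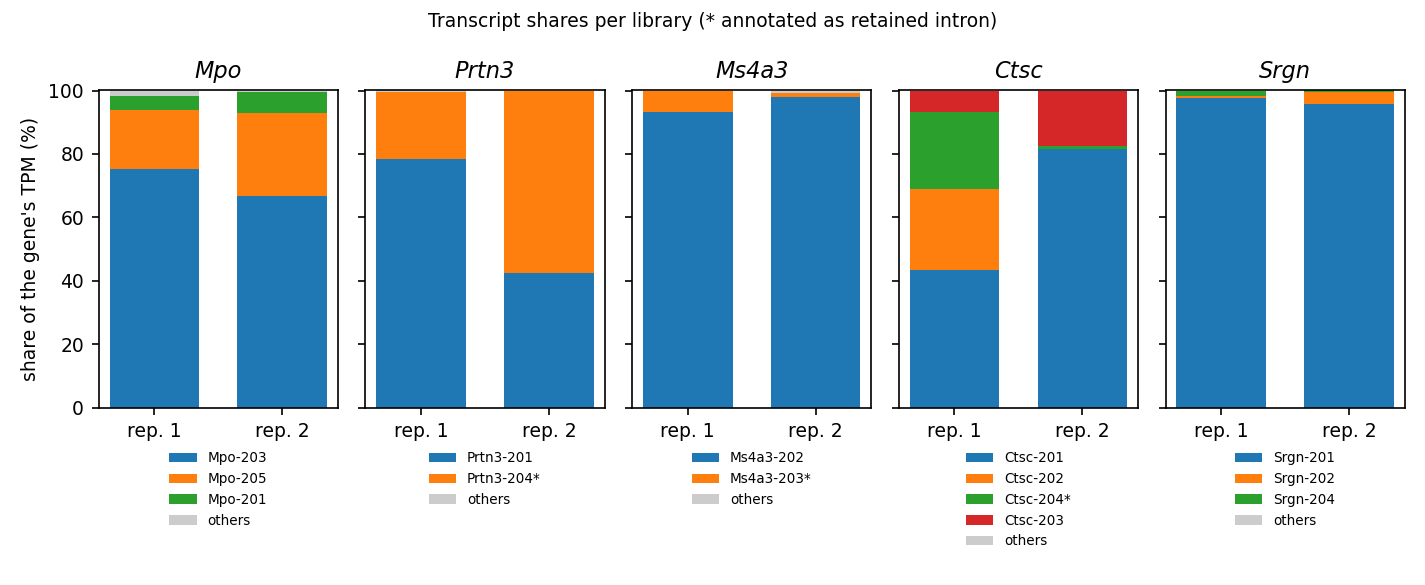
Share of each gene's TPM held by its transcripts in both libraries, as stacked bars in percent; transcripts under 1% on average are grey and an asterisk marks an annotated retained intron. Prtn3-201 falls short of Prtn3-204 in replicate 2 (42.5% and 57.5%), and Ctsc has 2 short transcripts in replicate 1 that are near 0 in replicate 2.

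Of 17 other primary granule genes 12 were detected. The 16 averaging 100 counts or more had a median log2 ratio of 0.08. Lyz2, a lysozyme gene shared with macrophages, was highest with 2260 coding-scaled TPM in replicate 1 and 1876 in replicate 2. Calr, Ctsb and Ctsd, which most cells express, followed at means of 899, 433 and 289. Bpi, which encodes a bactericidal protein of human primary granules, had 0 counts in both libraries.

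All 12 other genes of promyelocytes and early neutrophils were detected, with medians of 124 coding-scaled TPM in replicate 1 and 94.4 in replicate 2. Of these 12 genes, 3 were at least 1.5-fold higher in replicate 1, where 14.8% of all genes were. They were Alas1, Fcer1g and Nkg7, named after their values were seen. Alas1, the heme synthesis enzyme of non-erythroid cells, had a log2 ratio of 0.97 (0.83 to 1.10). Chil3 (675 ± 54.9), Plac8 (283 ± 55.2), Serpinb1a (144 ± 6.38) and Tyrobp were the highest, and their log2 ratios lay between -0.40 and 0.12. Of 7 inhibitors of granule proteases, with Serpinb1a and Cst7 also in the list above, 5 were detected. Wfdc21 was highest, with 154 coding-scaled TPM in replicate 1 and 221 in replicate 2, and at a log2 ratio of -0.63 was 1.5-fold higher in replicate 2. Cst3, the cystatin C gene, had 108 and 63.1 in replicates 1 and 2, and at 0.79 was 1.5-fold higher in replicate 1. Of all genes, 14.8% were 1.5-fold higher in replicate 1 and 11.2% in replicate 2. Serpinb1a, which inhibits elastase, proteinase 3 and cathepsin G, had 139 and 148 coding-scaled TPM in replicates 1 and 2. Cst7, which encodes cystatin F, an inhibitor of cathepsin C, had 42.3 and 50.6.

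The median level of the 8 members was 213 coding-scaled TPM in replicate 1 and 185 in replicate 2, that of 11 secondary granule genes 159 and 135, and that of 12 tertiary granule and late neutrophil genes 36.0 and 28.7. The 11 secondary granule genes summed to 6186 coding-scaled TPM in replicate 1 and 5194 in replicate 2, led by Ngp, Camp, Chil3 and Ltf, the lactoferrin gene. This list shares genes, Chil3 among them, with that of promyelocytes and early neutrophils, so the 2 are not separate sets. Of the 11 secondary granule genes only Ngp was 1.5-fold higher in replicate 1, where 14.8% of all genes were. Its log2 ratio was 0.81 (0.78 to 0.84), and the median of the 11 genes was 0.12. The 12 tertiary granule and late neutrophil genes summed to 14027 in replicate 1 and 15218 in replicate 2, with S100a8 and S100a9 holding most of it. The median log2 ratio of the tertiary granule and late neutrophil genes was 0.22 over 10 genes, with S100a9 at -0.67. Fpr1, a receptor for bacterial peptides, at 1.01 and Csf3r, the receptor of the granulocyte growth factor, at 0.92 were the 2 genes at least 1.5-fold higher in replicate 1. The share of all genes was again 14.8%. Whether the primary granule genes differ from these lists in ratio was not tested, since each ratio compares 1 library with 1 library.

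**Figure D4:**
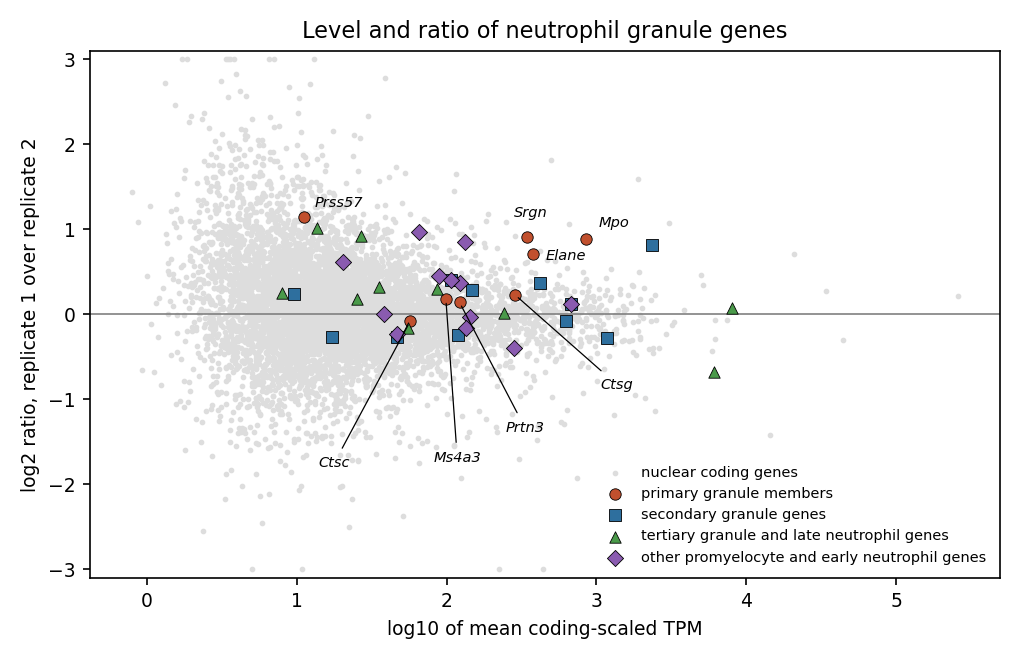
Log2 ratio of replicate 1 over replicate 2 against the log10 of mean coding-scaled TPM for nuclear protein-coding genes averaging 100 counts or more (grey) and for 4 gene lists (coloured), with ratios beyond 3 drawn at the edge. The ratios of the 8 primary granule genes run from -0.08 to 1.14 and those of secondary granule genes from -0.28 to 0.81.

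Of 12 listed myeloid transcription factors, not all of them of the granulocyte line, 7 were detected, and all 12 reached 1 coding-scaled TPM in both libraries. Runx1 stood at 129 ± 5.24 and Myb at 61.3 ± 9.96, both of which erythroid or progenitor cells also express. Cebpe, which drives the later granule program, had 56.1 coding-scaled TPM in replicate 1 and 29.3 in replicate 2, a log2 ratio of 0.98 (0.78 to 1.19). Spi1, which encodes PU.1, had 50.8 and 22.6 in replicates 1 and 2. Cebpa, the factor of earlier granulocyte progenitors, had 3.64 and 5.95, and Gfi1 had 14.0 and 13.9. Of the 12, Cebpe alone was 1.5-fold higher in replicate 1, where 14.8% of all genes were. Cebpa and Cebpb, at -0.62 and -0.94, were 1.5-fold higher in replicate 2, where 11.2% of all genes were.

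Markers of other cells that express some of the 8 genes were also measured, and their part in the levels was not tested. All 12 monocyte and macrophage markers reached 1 coding-scaled TPM in both libraries, summing to 784 in replicate 1 and 502 in replicate 2, with Ly6c2 highest at 402 and 173. Of the 11 with a ratio, Ly6c2 and Cd68 were at least 1.5-fold higher in replicate 1, where 14.8% of all genes were. Of 9 eosinophil, basophil and mast cell markers 7 reached 1 coding-scaled TPM in both libraries, summing to 921 in replicate 1 and 879 in replicate 2. Prg2 was the highest of these, at 530 and 450 in replicates 1 and 2. Of the 7 with a ratio, only Ear2, at -0.76, passed 1.5-fold. It was higher in replicate 2, where 11.2% of all genes were. Tpsab1 and Tpsb2, mast cell tryptase genes, had 0 counts. Of 9 stem and progenitor markers 7 reached 1 coding-scaled TPM in both libraries, summing to 42.6 and 42.2. Their 5 genes with a ratio had a median log2 ratio of 0.79. Of 10 T and NK cell markers 1 reached it, summing to 9.69 and 7.83, and Cd3d, Cd8a, Gzmb and Prf1 had 0 counts in both libraries. Of 7 megakaryocyte markers 4 reached it, summing to 121 and 144. Of 8 B cell markers 2 reached it, summing to 163 and 123, most of it from Ighm, and Pax5 and Igll1 had 0 counts in both libraries. This limit is laxer than the deposited TPM of 1 in each library that defines detection above. By detection, 10 of 12 monocyte and macrophage markers passed, and 6 of 9 eosinophil, basophil and mast cell markers. So did 1 of 9 stem and progenitor, 2 of 7 megakaryocyte, 1 of 8 B cell and 0 of 10 T and NK cell markers.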

How the data were processed

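Total RNA of mouse erythroblasts was sequenced in 2 libraries of 1 group. The labels give mm10 as the assembly, and GENCODE M4 is named in the text records deposited with the tables. How reads were aligned and quantified was not given in the sources used here. According to the file headers, the gene and transcript tables deposited by the authors, 1 library each, hold expected counts and posterior mean counts. The deposited TPM and posterior mean TPM are normalized over all listed features, and the deposited percent is each transcript's part of its gene's TPM. The deposited posterior standard deviation of the count served as a score of how far reads were shared.

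Of 43346 Ensembl genes, 42462 (98.0%) matched GENCODE M21 by identifier without version, which gave symbols, RNA classes and coordinates on the same assembly. Transcript names and types are those of M21. Expected counts were rounded and scaled with TMM factors of edgeR 4.0.16 in R 4.3.3, and ratios were taken for genes averaging 100 counts or more. DESeq2 1.42.0 size factors, library size, TPM and posterior means were alternatives. The scaling was run on simulated Poisson counts with known folds, as many up as down. Apart from those folds the simulated libraries had the same composition, so the simulation does not show how the scaling does on these libraries. Tables and intervals were made with scipy 1.17.1 and pandas 2.3.3 in Python 3.11.15. The members and lists were chosen with earlier results of these data known. Named genes were all members, up to 4 of the highest genes of each list, genes at 0 counts, the 2 nearest coding genes on each side and the 5 with the ratio nearest to that of Mpo. Alas1, Fcer1g, Nkg7, Fpr1, Csf3r, Cd68, Cebpa, Cebpb, Gfi1 and Mcpt2 fall outside this rule and were chosen after their values were seen. Some genes that this rule would name are not reported here.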

Additional observations from a re-analysis of the deposited data

How the results depend on the processing

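No paired analysis was possible because the series has 1 group, and its replicate numbers pair no groups. The median log2 ratio of the 8 members, 0.47 with TMM, was 0.46 with DESeq2 size factors and 0.48 with posterior mean counts. It was 0.62 by library size, 0.62 by coding-scaled TPM, 0.76 by coding-scaled TPM without globins and 1.33 by deposited TPM. The median of all genes moved with these settings, from 0.03 with TMM to 0.18 by library size, 0.10 without globins and 0.67 by deposited TPM. Relative to that median, the members stood at 0.44 by counts and 0.66 by TPM. The number of members at least 1.5-fold higher in replicate 1 was 4 with TMM, 5 without globins, 8 by deposited TPM and 1 at 2-fold. Of all genes, 14.8% passed 1.5-fold with TMM, 21.3% without globins and 56.5% by deposited TPM, and 5.8% passed 2-fold with TMM. Relative to the median of all genes, 5 members were 1.5-fold higher by deposited TPM. Genes of all kinds at least 1.5-fold apart numbered 2133, against 861 at 2-fold and 5415 among genes averaging 10 counts or more. Prtn3 changed sign by coding-scaled TPM, to -0.042, where the estimated gene length also enters. The summed level of the members, 0.215% of nuclear protein-coding TPM, was 0.339% without globins in the total, 0.213% by posterior means and 0.183% by counts. It ranged from 0.171% to 0.259% when 1 replicate was left out. Of 48 values of single members' ratios under other settings, 27 stayed within the counting interval and 20 moved beyond it. The other 1, of Prtn3, changed sign from a ratio whose interval excluded 0. Ctsc, whose interval holds 0, also changed sign, by library size and by each ratio of TPM. Those values are counted among the 20. Without globins in the total, the levels of all 8 members moved by more than 1 SD. With 2 libraries, no spread can be set on a ratio beyond counting error.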
